A study of Mus musculus with 43 samples.

Results

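The genes Flg, Flg2, Hrnr, Rptn, Crnn, Tchh, Tchhl1, Lor and Ivl encode filaggrin and its relatives, loricrin and involucrin, proteins that fill and harden the outermost layers of skin and the sheath around a growing hair. These 9 genes were taken by name from the 23256 genes of a table of normalised read counts. All 9 were in the table, and all 9 were among the 19170 genes that passed the filter on low values and were tested. The study measured poly-A RNA in 43 libraries from back skin of female mice aged 10 to 13 weeks, from 3 strains under 3 regimens of ultraviolet B (UVB), the medium-wave ultraviolet light that burns skin. Acute UVB meant a dose of 300 mJ/cm2 given 1 time, chronic UVB meant 100 mJ/cm2 on each of 5 days, and the skin was taken 24 hours after the last dose. The 9 groups were iNZM after acute UVB (5 libraries), after chronic UVB (5) and without UVB (4), NZM after acute UVB (5), after chronic UVB (5) and without UVB (5), and WT after acute UVB (5), after chronic UVB (5) and without UVB (4). NZM is the lupus-prone line NZM2328 named in the title of the series. The labels do not say what iNZM is, although the field uses that name for NZM2328 animals lacking the receptor for type I interferon, and they do not name the strain behind WT. They also do not say whether each library came from its own animal, so p-values measure only the spread between these libraries, which may be technical.

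Keratinocytes move upward from the basal layer, switch on a cluster of genes called the epidermal differentiation complex, and die as flat cornified cells. Filaggrin and its relatives share a calcium-binding head of the S100 type followed by a long repetitive body, and loricrin and involucrin are crosslinked by transglutaminases into the cornified envelope, the shell that replaces the cell membrane. Trichohyalin serves the same end in the inner root sheath, the layer that moulds a growing hair, so its gene is expressed mostly when follicles are in their growth phase.

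In the annotation GENCODE vM21 on build GRCm38, the 9 genes lie on chromosome 3 within positions 92080271 to 93471980, Lor and Ivl on the minus strand and the other 7 on the plus strand. Flg lies at 93273523 to 93293686, Flg2 at 93197278 to 93221391, Hrnr at 93319749 to 93333570, Rptn at 93393699 to 93399442, Crnn at 93144787 to 93149819, Tchh at 93442330 to 93449077, Tchhl1 at 93468754 to 93471980, Lor at 92080271 to 92083142 and Ivl at 92570902 to 92573735. The windows from 250 bases before to 50 after each start site, from RefSeq on GRCm38.p6, were searched on both strands for TGANTCA, the palindromic site of the AP-1 family of stress-responsive factors, for TATAAA, for CACCC and for AACCGGTT, with no 2 matches overlapping in the 9 windows. TGANTCA was found in 7 of the 9 windows and in 7.81% of 32817 promoters of the same length. The match read TGAGTCA in Lor and TGACTCA in Ivl, which are the usual AP-1 site. It read TGAATCA in Flg, Flg2, Crnn and Tchhl1 and TGATTCA in Rptn, which are not. The share of all promoters with the usual site was not counted. TATAAA was in 6 of the 9 and in 13.6% of all promoters, CACCC in 7 of the 9 and in 57.5%, and AACCGGTT in 0 of the 9 and in 0.146%. A match is a description of the letters and not a site of binding. The last 130 bases before the start are shown for 4 genes that hold TGANTCA and differ in how they behaved under UVB (Flg, Rptn, Lor and Ivl), and for the 2 that do not hold it (Hrnr and Tchh). They read 5′ to 3′ along the gene's own strand, with TGANTCA in capitals.

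Flg: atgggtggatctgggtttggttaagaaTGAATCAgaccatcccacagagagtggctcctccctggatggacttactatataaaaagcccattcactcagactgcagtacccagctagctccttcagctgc
Rptn: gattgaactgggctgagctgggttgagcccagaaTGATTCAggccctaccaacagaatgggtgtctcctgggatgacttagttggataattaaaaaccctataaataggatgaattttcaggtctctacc
Lor: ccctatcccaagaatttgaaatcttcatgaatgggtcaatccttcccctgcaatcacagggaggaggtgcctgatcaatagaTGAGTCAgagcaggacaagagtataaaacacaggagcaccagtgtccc
Ivl: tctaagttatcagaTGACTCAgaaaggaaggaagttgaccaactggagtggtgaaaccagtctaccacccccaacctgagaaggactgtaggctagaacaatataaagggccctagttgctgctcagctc
Hrnr: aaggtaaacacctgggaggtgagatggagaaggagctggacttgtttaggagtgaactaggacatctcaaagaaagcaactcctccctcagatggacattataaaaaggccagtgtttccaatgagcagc
Tchh: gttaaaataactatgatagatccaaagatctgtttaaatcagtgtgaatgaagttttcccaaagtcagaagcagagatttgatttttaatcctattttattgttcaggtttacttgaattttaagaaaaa

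The stretches lie at chr3:93273416-93273545 on the plus strand (Flg), chr3:93393569-93393698 on the plus strand (Rptn), chr3:92083143-92083272 on the minus strand (Lor), chr3:92573736-92573865 on the minus strand (Ivl), chr3:93319619-93319748 on the plus strand (Hrnr) and chr3:93442200-93442329 on the plus strand (Tchh). Starts are those of RefSeq, which for Flg lies downstream of the GENCODE start. The match begins 103 bases before the start in Flg, 96 in Rptn, 48 in Lor and 116 in Ivl.

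Total reads per library, as recovered from the table, ran from 18.49 M to 37.76 M, with a median of 24.44 M. Ifnar1, for a subunit of the interferon receptor, averaged 366 to 491 normalised read counts in the 3 iNZM groups, against 785 to 1005 in the NZM groups and 818 to 1018 in the WT groups. Genes of the spinous and granular layers, the tissue in which most of the 9 genes are expressed, were abundant in every library, and the summed level of their 16 markers ran from 37928 to 1902140 normalised read counts. In 9 libraries the mean log2(value + 1) of 25 hair shaft genes lay above 7.92, the midpoint between the lowest and the highest library. These were libraries 6 and 49 of iNZM after acute UVB, 22, 24 and 25 of iNZM after chronic UVB, 5 of NZM after acute UVB, and 17, 55 and 56 of NZM after chronic UVB. No WT library and no library without UVB was among them. Where stated, results are also given without these libraries. Fewer cells of a type and less RNA per cell cannot be told apart in bulk skin.

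The 2 UVB regimens left different marks on the 9 genes. A day after acute UVB, 3 of them fell in NZM (Flg2, Hrnr and Lor), 4 in iNZM (Flg2, Hrnr, Lor and Ivl) and 3 in WT (Flg2, Lor and Ivl), and 0 rose in any strain. Across all genes tested, limma called 12.4% lower and 12.8% higher in iNZM, 10.7% lower and 10.6% higher in NZM, and 11.3% lower and 10.4% higher in WT. A day after the last of 5 chronic doses, 0 fell, while 4 rose in iNZM (Flg, Crnn, Tchh and Tchhl1), 6 in NZM (Flg, Rptn, Ivl, Crnn, Tchh and Tchhl1) and 4 in WT (Flg, Hrnr, Rptn and Ivl). The shares of all genes were 13.1% higher and 15.7% lower in iNZM, 9.20% higher and 9.78% lower in NZM, and 18.4% higher and 16.8% lower in WT. A call is an adjusted p below 0.05 in limma on log2(value + 1), with Benjamini-Hochberg adjustment over the genes tested. Where groups are said below not to overlap, the share of all genes that separate in this way was not counted. The median log2 difference of the 9 genes after acute UVB was -1.51 in iNZM, -0.83 in NZM and -1.16 in WT, and after chronic UVB 0.75 in iNZM, 2.78 in NZM and 2.25 in WT. Medians over all genes tested lay between 0 and 0.04 in these 6 comparisons. With an unadjusted p below 0.05, 1 of the 9 was higher after acute UVB in iNZM, and 0 in NZM and in WT. After chronic UVB 1 was lower at that level in iNZM, 1 in NZM and 0 in WT. On recovered reads edgeR called 2 of the 9 higher after acute UVB in iNZM, 3 in NZM and 0 in WT. DESeq2 called 3 in iNZM, 3 in NZM and 0 in WT. Of all 19170 genes edgeR called 2958, 2304 and 2030 higher in iNZM, NZM and WT, and DESeq2 3472, 2673 and 2215. By group mean only Crnn, Tchh and Tchhl1 of the 9 were higher after acute UVB than without UVB in iNZM. In NZM Rptn was higher as well. After chronic UVB edgeR called 0 lower in each strain, and DESeq2 called 1 lower in iNZM, 0 in NZM and 0 in WT. Of all genes edgeR called 2373, 1658 and 3388 lower there in iNZM, NZM and WT, and DESeq2 2663, 2078 and 3705. Without the 9 libraries high in hair genes limma called 4 lower and 0 higher in each strain after acute UVB. After chronic UVB that fit called 1 higher in iNZM, 4 in NZM and 5 in WT, and 0 lower.

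Markers of other cells in the skin also moved with UVB. Of 10 skeletal muscle genes 9 fell in iNZM, 8 in NZM and 9 in WT after chronic UVB, and 0 after acute UVB. Their summed level after chronic UVB ran from 89568 to 986895 counts in iNZM, 103553 to 730666 in NZM and 247067 to 310156 in WT, against 883942 to 1140980 in iNZM, 701983 to 1656540 in NZM and 856526 to 2162530 in WT without UVB. Of 9 adipocyte genes 7 fell in iNZM, 0 in NZM and 7 in WT after chronic UVB, and 6 fell in iNZM, 0 in NZM and 1 in WT after acute UVB. Of 7 fibroblast genes 5 fell in iNZM, 3 rose in NZM and 4 fell in WT after chronic UVB, and after acute UVB 0 were called in iNZM, 2 rose in NZM and 0 were called in WT. Of 10 myeloid genes 1 rose and 1 fell in iNZM, 5 rose in NZM and 3 rose in WT after acute UVB. After chronic UVB 9 of the 10 fell in iNZM, 1 rose in NZM, and 1 rose and 1 fell in WT. The myeloid sums in iNZM were 523 to 3207 counts after chronic UVB, against 4673 to 14049 without UVB, and in NZM 2012 to 14923 after acute UVB, against 2978 to 3622 without UVB. Of 10 sebaceous gland genes 7 rose and 1 fell in WT after chronic UVB, with sums of 21104 to 260972, against 27262 to 48766 in WT without UVB. The part of these cells in the results on the 9 genes was not tested.

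**Figure D1:**
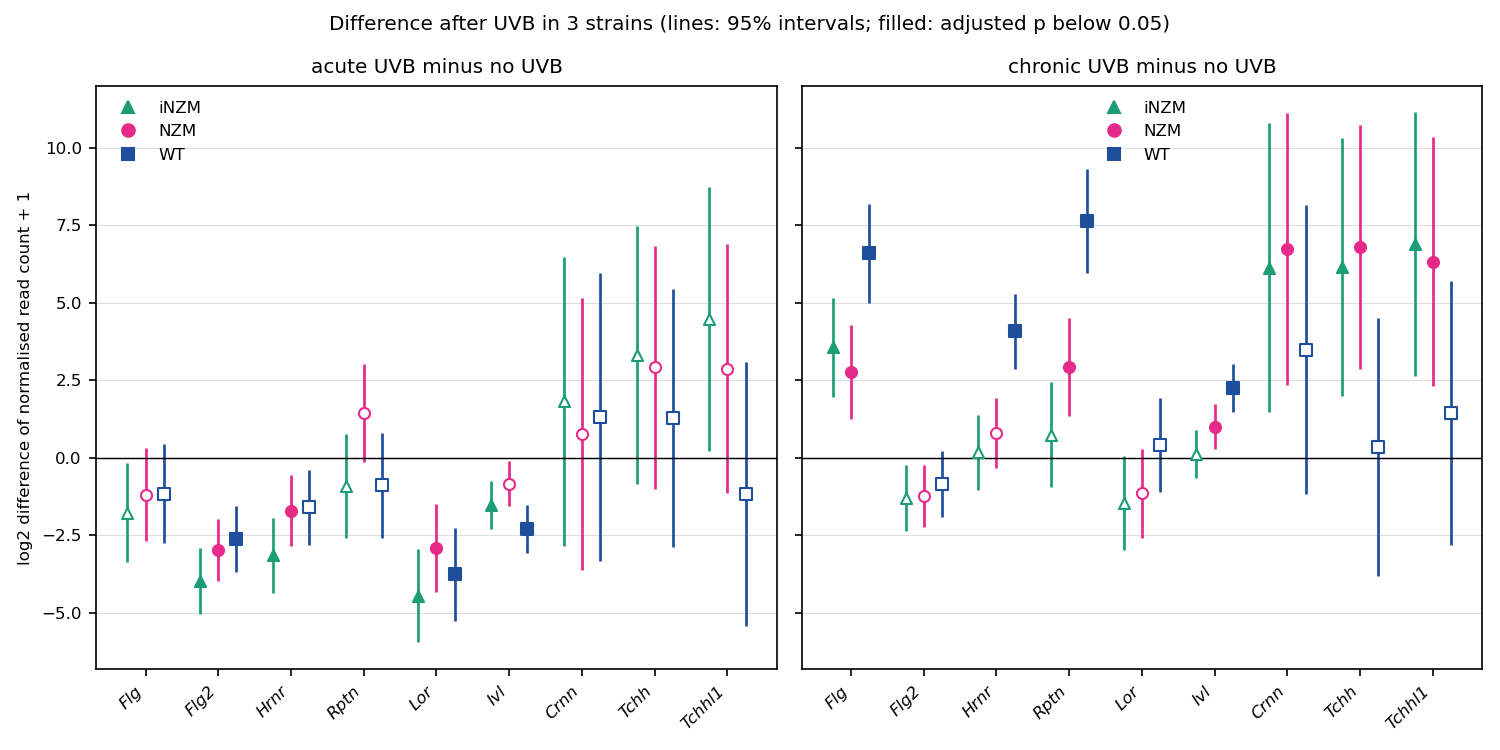
Difference in log2(normalised read count + 1) between UVB and no UVB for the 9 genes, after acute UVB on the left and chronic UVB on the right, with a marker per strain. Lines are 95% intervals and filled markers have a limma adjusted p below 0.05. Flg2 and Lor are filled below 0 in all 3 strains after acute UVB, and Flg is filled above 0 in all 3 after chronic UVB.

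Flg encodes profilaggrin, which is cut into filaggrin units that bundle keratin filaments and are later broken down into the amino acids that keep the cornified layer moist. In iNZM it had 1504, 2445, 1873, 2864 and 397 normalised read counts after acute UVB, 318527, 77196, 128102, 29580 and 9306 after chronic UVB, and 7863, 7617, 3586 and 3283 without UVB. In NZM it had 757, 1521, 4952, 2696 and 5949 after acute UVB, 38355, 94793, 125715, 6819 and 27009 after chronic UVB, and 1943, 4313, 7125, 10795 and 8529 without UVB. In WT it had 187, 389, 988, 348 and 1153 after acute UVB, 151858, 175361, 44137, 147302 and 78786 after chronic UVB, and 1623, 1502, 840 and 697 without UVB. Every chronic library of iNZM and WT was above every unexposed library of its strain, and in NZM 1 chronic library, 55, lay within the unexposed range. Flg rose after chronic UVB by 3.57 ± 0.79 (SE) on the log2 scale in iNZM (limma adjusted p = 0.00152), by 2.78 ± 0.75 in NZM (adjusted p = 0.00971) and by 6.60 ± 0.79 in WT (adjusted p = 7.48e-08). Without the 9 libraries high in hair genes the differences were 5.29 in iNZM, 3.63 in NZM and 6.60 in WT, and all 3 kept their calls. After acute UVB the log2 difference was -1.77 ± 0.79 in iNZM, -1.18 ± 0.75 in NZM and -1.15 ± 0.79 in WT, and none passed (adjusted p = 0.0948, 0.277 and 0.336), although the 5 acute iNZM libraries all lay below the 4 unexposed ones. The spread within groups was wide, since chronic iNZM libraries averaged 112542 ± 123957 (SD, n = 5).

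**Figure D2:**
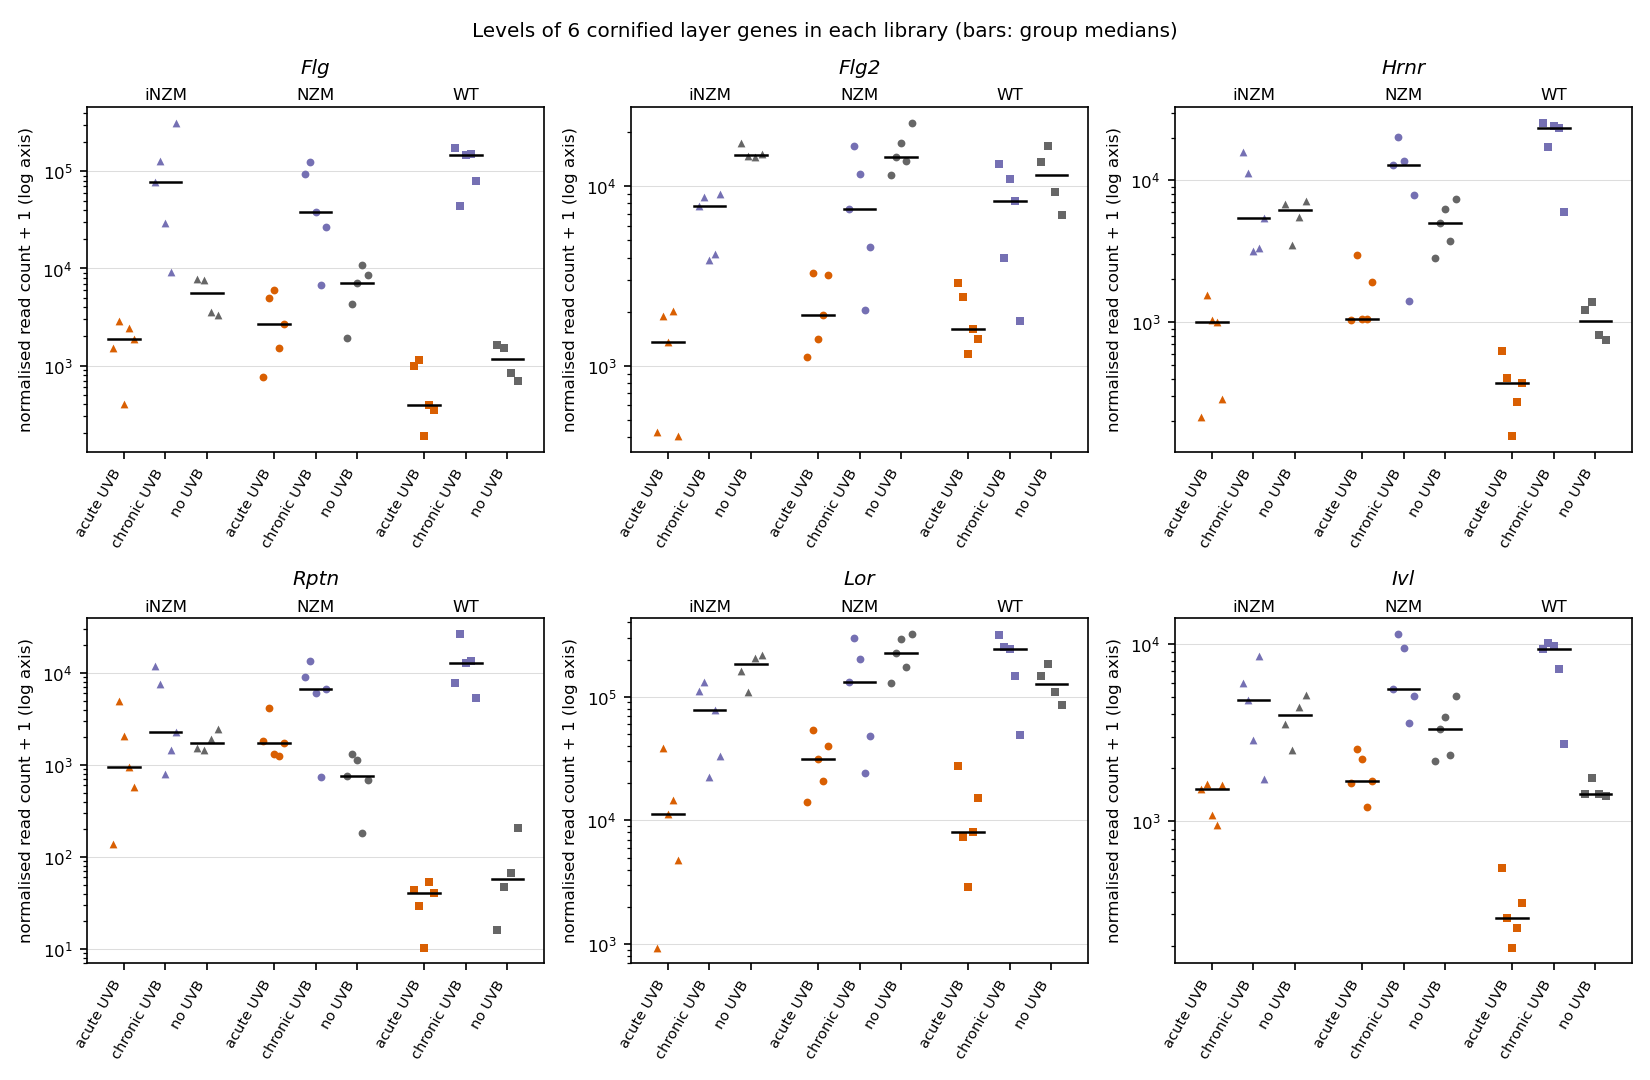
Normalised read counts plus 1, on log axes, of 6 genes of the cornified layer in each of the 43 libraries. Points are libraries, grouped by strain and regimen, and bars are group medians. Flg and Rptn in WT are highest after chronic UVB, at least 44137 and 5359 counts in every library, while Flg2 and Lor are lowest after acute UVB in all 3 strains.

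Flg2 encodes filaggrin 2, a relative of filaggrin that is made and cleaved in the same layers. Its normalised read counts in iNZM were 424, 2007, 404, 1884 and 1358 after acute UVB, 9018, 7780, 8654, 3853 and 4176 after chronic UVB, and 17359, 14607, 14439 and 14990 without UVB. Counts in NZM were 1118, 1917, 3271, 3211 and 1405 after acute UVB, 11734, 7424, 16607, 2033 and 4591 after chronic UVB, and 11566, 14567, 17376, 13861 and 22583 without UVB. Those in WT were 1167, 1597, 2874, 1409 and 2411 after acute UVB, 8289, 13228, 3985, 10918 and 1780 after chronic UVB, and 13627, 16656, 9278 and 6910 without UVB. No acute library reached the lowest unexposed library of its strain. Flg2 fell after acute UVB, with log2 differences of -3.97 ± 0.52 in iNZM (limma adjusted p = 1.04e-06), -2.96 ± 0.49 in NZM (adjusted p = 3.35e-05) and -2.62 ± 0.52 in WT (adjusted p = 0.000267). After chronic UVB its log2 difference was -1.29 ± 0.52 in iNZM, -1.22 ± 0.49 in NZM and -0.85 ± 0.52 in WT, none of which passed (adjusted p = 0.0607, 0.078 and 0.211). Flg2 thus had no call above 0 in the comparison in which Flg rose, and the medians of Flg2 per 100 Flg counts were 10.1 in iNZM, 17.0 in NZM and 7.41 in WT after chronic UVB, against 312 in iNZM, 265 in NZM and 1048 in WT without UVB.

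Hrnr encodes hornerin, another repeat protein of the filaggrin type that becomes part of the cornified envelope. In iNZM the counts were 215, 1004, 288, 1564 and 1043 after acute UVB, 5394, 15753, 11254, 3184 and 3326 after chronic UVB, and 6849, 3503, 5526 and 7197 without UVB. NZM had 1036, 1059, 2990, 1906 and 1057 after acute UVB, 13584, 12852, 20016, 1407 and 7868 after chronic UVB, and 2824, 5040, 6247, 3703 and 7348 without UVB. WT had 157, 274, 628, 371 and 405 after acute UVB, 23249, 25526, 17088, 23929 and 5946 after chronic UVB, and 1215, 1376, 808 and 752 without UVB. Acute libraries lay below all unexposed ones in iNZM and WT, and in NZM library 3 reached into the unexposed range. Hrnr fell after acute UVB, with log2 differences of -3.13 ± 0.60 in iNZM (limma adjusted p = 0.000184) and -1.70 ± 0.56 in NZM (adjusted p = 0.0263, or 0.0641 once library numbers from 46 upward had a term of their own). The NZM call was also lost without acute library 1, 46 or 5 or unexposed library 33 or 35, with adjusted p up to 0.069. In WT the difference of -1.59 ± 0.60 missed the threshold (adjusted p = 0.0514). After chronic UVB Hrnr rose by 4.09 ± 0.60 in WT (adjusted p = 2.64e-06), while the differences of 0.19 ± 0.60 in iNZM and 0.80 ± 0.56 in NZM did not pass (adjusted p = 0.839 and 0.328). Without the 9 libraries high in hair genes, which leaves 2 chronic NZM libraries, the NZM difference was 1.80 with adjusted p = 0.0323.

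Rptn encodes repetin, a transglutaminase substrate of the filaggrin type. It had 139, 959, 571, 4920 and 2075 counts in iNZM after acute UVB, 2276, 11983, 7678, 796 and 1465 after chronic UVB, and 1515, 1438, 1927 and 2435 without UVB. The NZM libraries had 1812, 1242, 4146, 1735 and 1319 after acute UVB, 6016, 9117, 13485, 737 and 6774 after chronic UVB, and 754, 1329, 1124, 180 and 687 without UVB. The WT libraries had 9.35, 52.0, 42.7, 39.7 and 28.2 after acute UVB, 13382, 7884, 26573, 12995 and 5359 after chronic UVB, and 15.1, 46.5, 65.9 and 207 without UVB. The lowest chronic WT library was far above the highest unexposed one, and in NZM 4 of the 5 chronic libraries were above all unexposed ones. Rptn rose after chronic UVB by 7.64 ± 0.83 on the log2 scale in WT (limma adjusted p = 1.24e-08) and by 2.94 ± 0.79 in NZM (adjusted p = 0.00961). In iNZM the difference was 0.75 ± 0.83 (adjusted p = 0.518). Its direction after acute UVB varied by strain without passing the test in any, at -0.91 ± 0.83 in iNZM, 1.45 ± 0.79 in NZM and -0.88 ± 0.83 in WT (adjusted p = 0.439, 0.195 and 0.516). The lowest acute iNZM libraries, 6 and 49 at 139 and 571 counts, were both among the 9 high in hair genes.

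Lor encodes loricrin, the most abundant protein of the cornified envelope in skin. The iNZM libraries had 934, 14614, 4786, 38326 and 11163 counts after acute UVB, 33040, 110491, 132371, 22638 and 78283 after chronic UVB, and 161379, 109956, 206984 and 216766 without UVB. Those of NZM had 14039, 20695, 54035, 40004 and 31242 after acute UVB, 200977, 131092, 298091, 24043 and 47961 after chronic UVB, and 130033, 225975, 291437, 173120 and 322385 without UVB. Those of WT had 2884, 8028, 27422, 15109 and 7329 after acute UVB, 146322, 316296, 254163, 241805 and 48744 after chronic UVB, and 146721, 183987, 108740 and 85968 without UVB. All acute libraries lay below all unexposed libraries of their strain, and the chronic groups overlapped the unexposed ones. Lor fell after acute UVB, with log2 differences of -4.44 ± 0.75 in iNZM (limma adjusted p = 3.66e-05), -2.91 ± 0.70 in NZM (adjusted p = 0.00251) and -3.76 ± 0.75 in WT (adjusted p = 0.00024). After chronic UVB the differences were -1.46 ± 0.75 in iNZM, -1.14 ± 0.70 in NZM and 0.42 ± 0.75 in WT, and none passed (adjusted p = 0.136, 0.255 and 0.693).

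Ivl encodes involucrin, an early scaffold of the envelope. Its counts in iNZM were 1529, 958, 1595, 1616 and 1086 after acute UVB, 1731, 6045, 4802, 2875 and 8505 after chronic UVB, and 3549, 2522, 4431 and 5139 without UVB. For NZM they were 1639, 1202, 2570, 1690 and 2244 after acute UVB, 9448, 5587, 11340, 3562 and 5083 after chronic UVB, and 2192, 3310, 3879, 2363 and 5103 without UVB. For WT they were 194, 250, 548, 347 and 285 after acute UVB, 7161, 9329, 10082, 9759 and 2726 after chronic UVB, and 1417, 1755, 1427 and 1384 without UVB. In WT the 3 groups did not overlap, with the acute libraries lowest and the chronic ones highest. Ivl fell after acute UVB, with log2 differences of -1.51 ± 0.38 in iNZM (limma adjusted p = 0.00328) and -2.28 ± 0.38 in WT (adjusted p = 2.27e-05), and in NZM the difference was -0.83 ± 0.36 (adjusted p = 0.0964). After chronic UVB it rose by 2.25 ± 0.38 in WT (adjusted p = 2.36e-05) and by 1.00 ± 0.36 in NZM (adjusted p = 0.0465), and in iNZM the difference was 0.13 ± 0.38 (adjusted p = 0.816). The NZM call after chronic UVB was near the threshold and held in 2 of the 10 fits that left out 1 library, with adjusted p up to 0.123. It was lost without chronic library 54, 17, 18 or 56 and without unexposed library 31, 32, 33 or 34.

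Set directly against acute UVB, chronic UVB left more of the 9 genes higher and 0 lower in each strain. In iNZM 5 rose (Flg, Flg2, Hrnr, Lor and Ivl), in NZM 4 (Flg, Flg2, Hrnr and Ivl) and in WT 6 (Flg, Flg2, Hrnr, Rptn, Lor and Ivl). Of all genes tested 3.81% were higher and 4.45% lower in iNZM, 3.79% higher and 3.76% lower in NZM, and 19.6% higher and 17.7% lower in WT. The count of lower genes was also 0 in each strain at an unadjusted p below 0.05, by edgeR and by DESeq2. In WT Rptn rose by 8.53 ± 0.79 on the log2 scale (limma adjusted p = 2.45e-10), Flg by 7.75 ± 0.75 (5.55e-10), Hrnr by 5.68 ± 0.56 (9.31e-10), Ivl by 4.53 ± 0.36 (1.3e-11), Lor by 4.18 ± 0.70 (1.5e-05) and Flg2 by 1.77 ± 0.49 (0.00484). In iNZM the values were 5.34 ± 0.75 for Flg (limma adjusted p = 3.07e-05), 3.32 ± 0.56 for Hrnr (0.000252), 2.98 ± 0.70 for Lor (0.00631), 2.69 ± 0.49 for Flg2 (0.000632) and 1.64 ± 0.36 for Ivl (0.00319). These 5 iNZM calls were all lost when only the compared groups entered the fit (adjusted p = 0.051 to 0.225), as were those of Flg2 and Hrnr in NZM (0.0913 and 0.0537). NZM had 3.96 ± 0.75 for Flg (limma adjusted p = 0.000838), 2.50 ± 0.56 for Hrnr (0.00426), 1.83 ± 0.36 for Ivl (0.00128) and 1.75 ± 0.49 for Flg2 (0.0239). The call of Flg2 in NZM was also lost without acute library 1 or without chronic library 54, 17 or 18, with adjusted p up to 0.0884. Without the 9 libraries high in hair genes 4 rose in iNZM, 5 in NZM and 7 in WT. The iNZM call lost there was that of Lor, with a difference of 1.84 (limma adjusted p = 0.0782), and the NZM call gained was that of Lor, with 3.12 (0.00431).

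Because Flg and Lor are both made in the granular layer, the level of Flg relative to Lor was followed in each library. The median of Flg per 100 Lor counts in iNZM was 16.7 after acute UVB, 96.8 after chronic UVB and 3.30 without UVB. In NZM it was 7.35 after acute UVB, 42.2 after chronic UVB and 2.44 without UVB, and in WT it was 4.85 after acute UVB, 60.9 after chronic UVB and 0.814 without UVB. The chronic libraries ran from 11.9 to 964 in iNZM, from 19.1 to 72.3 in NZM and from 17.4 to 162 in WT, above every unexposed library of the strain, whose highest were 6.93, 6.24 and 1.11. After acute UVB Lor was below unexposed skin in every library, whereas after chronic UVB the Lor levels overlapped those of unexposed skin, and those of Flg overlapped in NZM library 55 alone. These ratios combine 2 genes already tested and are given as a description.

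**Figure D3:**
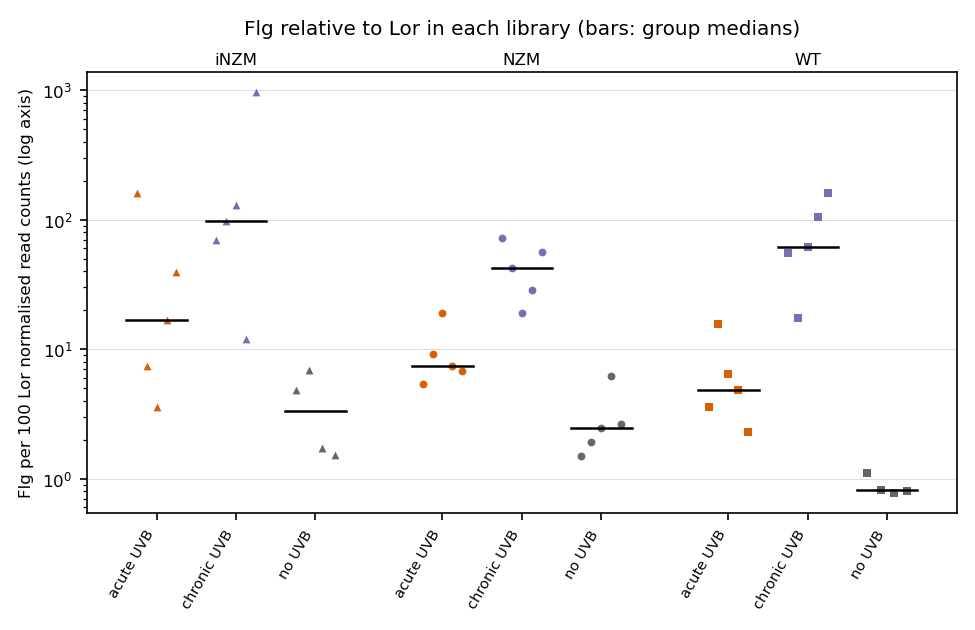
Flg normalised read counts per 100 Lor normalised read counts on a log axis, with a point per library and bars at group medians. In each strain the chronic UVB libraries lie above all unexposed libraries, with medians of 96.8 in iNZM, 42.2 in NZM and 60.9 in WT.

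Crnn, Tchh and Tchhl1 behaved apart from the other 6. Crnn encodes cornulin, known from the upper layers of moist squamous epithelia such as the oesophagus, Tchh encodes trichohyalin, and Tchhl1 encodes a trichohyalin-like protein of the same family. Tchh in iNZM had 35294, 79.7, 31050, 119 and 144 counts after acute UVB, 693, 18489, 122, 69525 and 260986 after chronic UVB, and 63.2, 102, 136 and 151 without UVB. In NZM Tchh had 185, 126, 213, 153 and 82206 after acute UVB, 93.7, 42789, 1955, 94181 and 59487 after chronic UVB, and 63.0, 83.3, 146, 42.8 and 73.7 without UVB. WT libraries had 2193, 116, 711, 119 and 2490 counts of Tchh after acute UVB, 303, 250, 338, 328 and 237 after chronic UVB, and 59.2, 87.0, 4688 and 106 without UVB. Within the exposed iNZM and NZM groups some libraries stayed near the unexposed level and others were far above it. Tchh rose after chronic UVB by 6.17 ± 2.05 on the log2 scale in iNZM (limma adjusted p = 0.0241) and by 6.80 ± 1.94 in NZM (adjusted p = 0.0146), against 0.35 ± 2.05 in WT (adjusted p = 0.913). Crnn rose by 6.14 ± 2.30 in iNZM (adjusted p = 0.0418) and 6.74 ± 2.17 in NZM (adjusted p = 0.0275), and Tchhl1 rose by 6.89 ± 2.10 in iNZM (adjusted p = 0.0151) and 6.33 ± 1.98 in NZM (adjusted p = 0.0241). In WT the differences were 3.50 ± 2.30 for Crnn and 1.45 ± 2.10 for Tchhl1, and neither passed (adjusted p = 0.24 and 0.625). After acute UVB none of these genes passed in limma in any strain. On recovered reads edgeR called 2 and DESeq2 3 of the 9 members higher after acute UVB in iNZM, and each called 3 in NZM. In iNZM Crnn, Tchh and Tchhl1 were the only members whose group mean was higher after acute UVB than without UVB.

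The very high libraries were the 9 in which hair shaft genes were high. In those 9 Tchh ran from 18489 to 260986 with a median of 59487, against 42.8 to 4688 with a median of 140 in the other 34. Crnn ran from 871 to 15080 in the 9, against 0 to 243 in the 34, and Tchhl1 from 118 to 16970, against 0 to 59.5, so that no library crossed over for any of the 3 genes. Over the 43 libraries the Pearson correlation with the hair shaft mean was 0.97 for Tchh, 0.90 for Crnn and 0.90 for Tchhl1, and between -0.32 and 0.16 for the other 6 genes. With group means removed the correlations were 0.98 for Tchh, 0.94 for Crnn and 0.90 for Tchhl1. They were -0.53 for Flg2 and for Hrnr, -0.50 for Lor, -0.47 for Rptn, -0.15 for Flg and 0.03 for Ivl. These are descriptions over libraries that share groups. Of the 25 hair shaft genes 16 rose and 0 fell after chronic UVB in iNZM, 14 rose and 0 fell in NZM, and 0 rose and 0 fell in WT. Their summed level after chronic UVB ran from 755 to 831114 counts in iNZM, from 853 to 376061 in NZM and from 847 to 2640 in WT, against 1086 to 1251 in iNZM, 1535 to 2018 in NZM and 846 to 6331 in WT without UVB. After acute UVB the sums ran from 866 to 291621 in iNZM, 960 to 242914 in NZM and 508 to 9618 in WT. Of 9 inner root sheath genes 6 rose in iNZM and 8 in NZM after chronic UVB, and 0 in WT, and no gene of either list was at 0 in all libraries. Single markers were at 0 in some libraries, among them Krt25 in at least 1 library of every group but NZM after chronic UVB. Krt25, an inner root sheath keratin gene, had a median of 35505 counts in iNZM and 77115 in NZM after chronic UVB, against 2.18 and 4.02 without UVB, and Krt85, a hair shaft keratin gene, had 5110 and 10479, against 0.521 and 3.50.

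Without the 9 libraries, which leaves 2 chronic libraries each in iNZM and NZM, the differences of Tchh after chronic UVB were 1.43 in iNZM and 2.50 in NZM (limma adjusted p = 0.444 and 0.247). Those of Crnn were 1.55 and 3.40 (0.566 and 0.254) and those of Tchhl1 were 2.01 and 1.79 (0.231 and 0.391), so none of the 6 calls held. They were also lost with the hair shaft mean as a covariate, where Tchh differed by 0.42 in iNZM and 1.23 in NZM. Crnn, Tchh and Tchhl1 were highest in the 9 libraries and followed the hair shaft mean, so these losses are not a separate check. The covariate fit added calls in WT after chronic UVB, of 4.50 for Crnn (limma adjusted p = 3.2e-05), 1.29 for Tchh (0.015) and 2.33 for Tchhl1 (0.0366). In WT, which had none of the 9 libraries, Crnn had 119, 32.4, 98.0, 56.9 and 17.1 counts after chronic UVB, against 0, 0.99, 243 and 0 without UVB. All 5 chronic libraries were above 3 of the 4 unexposed ones. The 4th, library 44, also had the highest hair shaft mean of the unexposed libraries, at 7.43. In the fit without the 9 libraries the WT difference of Crnn, 3.50, had adjusted p = 0.0361. The moist epithelium genes Krt4, Krt13 and Sprr3 summed to at most 89.9 counts in any library, from 5.89 to 31.9 in WT after chronic UVB and from 8.12 to 38.6 in WT without UVB, and 0 of the 3 were called in that comparison.

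**Figure D4:**
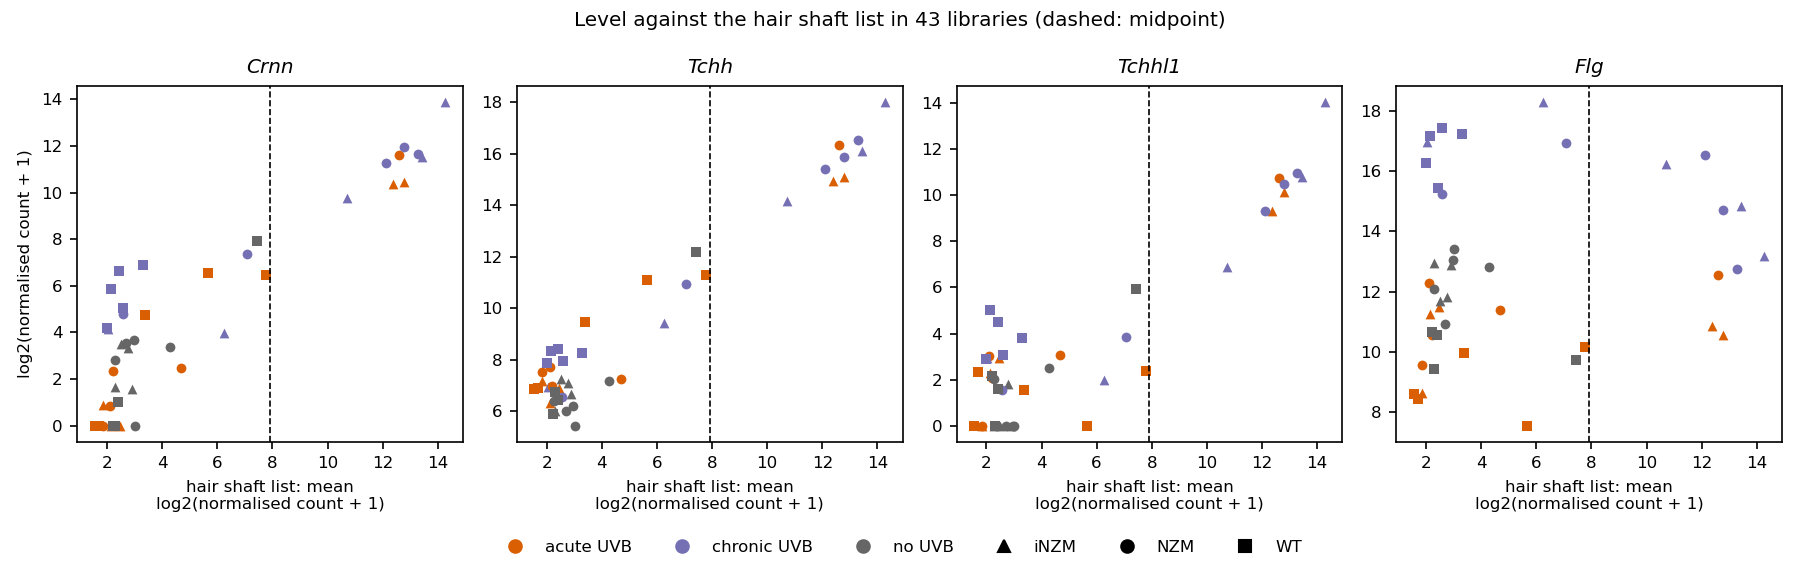
Level of Crnn, Tchh, Tchhl1 and, for contrast, Flg against the mean level of 25 hair shaft genes, both as log2(normalised read count + 1), in the 43 libraries. Colour gives the regimen, shape the strain, and the dashed line the midpoint at 7.92. The 9 libraries to its right hold the highest values of Crnn, Tchh and Tchhl1, with correlations of 0.90, 0.97 and 0.90, while the correlation for Flg is 0.16.

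The strains were then compared under each regimen. Unexposed NZM skin had more Flg, Hrnr, Rptn and Ivl than unexposed WT skin, and the same 4 genes were higher in NZM after acute UVB. After chronic UVB 0 of the 9 passed the test. Of all genes tested 7.47% were higher and 7.49% lower in NZM without UVB, 7.96% higher and 5.08% lower after acute UVB, and 4.29% higher and 3.59% lower after chronic UVB. Without UVB the levels given above put all 5 NZM libraries above all 4 WT libraries for Flg, Hrnr and Ivl, and for Rptn 1 NZM library, at 180, lay below the highest WT library, at 207. The log2 differences without UVB were 2.36 ± 0.79 for Flg (limma adjusted p = 0.0381), 2.24 ± 0.60 for Hrnr (0.00809), 3.56 ± 0.83 for Rptn (0.00253) and 1.11 ± 0.38 for Ivl (0.0435). After acute UVB they were 2.32 ± 0.75 for Flg (limma adjusted p = 0.0323), 2.13 ± 0.56 for Hrnr (0.00799), 5.90 ± 0.79 for Rptn (6.42e-07) and 2.56 ± 0.36 for Ivl (1.73e-06). For Hrnr, Rptn and Ivl the acute NZM and WT libraries did not overlap, and for Flg they did. Flg2 and Lor did not pass in either regimen in this fit, with 0.50 ± 0.52 and 0.78 ± 0.75 without UVB and 0.16 ± 0.49 and 1.62 ± 0.70 after acute UVB. After acute UVB 5 of the 9 were higher at an unadjusted p below 0.05. There edgeR called 5 higher, DESeq2 6, and limma 5 both without the 9 libraries high in hair genes and with the hair shaft mean as a covariate. Of all 19170 genes these fits called 1488, 1819, 1837 and 2041 higher. Without UVB each of these counts of members was 4. After chronic UVB the differences ran from -1.47 ± 0.75 for Flg to 0.13 ± 0.49 for Flg2 among these 6 genes. At an unadjusted p below 0.05, 1 of the 9 was higher (Tchh) and 0 lower after chronic UVB, edgeR called 1 and DESeq2 2 higher, and both called 0 lower. With the hair shaft mean as a covariate limma called 0 higher and 1 lower there.

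The calls of Flg and Ivl between NZM and WT depended on single libraries. Without UVB the Flg call held in 4 of 9 fits that left out 1 library and was lost without NZM library 33, 34 or 35 or WT library 44 or 45, with adjusted p up to 0.128. The Ivl call held in 2 of 9, and was lost without NZM library 32, 33 or 35 or any of the 4 WT libraries, with adjusted p up to 0.124. After acute UVB the Flg call held in 4 of 10 and was lost without NZM library 3, 47 or 5 or WT library 50, 51 or 52, with adjusted p up to 0.119. The calls of Hrnr and Rptn in both regimens, and of Ivl after acute UVB, held in every such fit. Other tissue markers also differed between the unexposed strains. Of 9 adipocyte genes 9 were lower in NZM, with sums of 10804 to 30830 counts in NZM, against 90206 to 149151 in WT. Of 7 fibroblast genes 6 were lower, with sums of 13933 to 50470 in NZM, against 56838 to 264301 in WT. Of 9 genes of activated keratinocytes 6 were higher, with sums of 35622 to 89276 in NZM, against 26992 to 38166 in WT. No gene of these lists was at 0 in all libraries. The part of these tissue markers in the differences of the 4 genes was not tested.

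**Figure D5:**
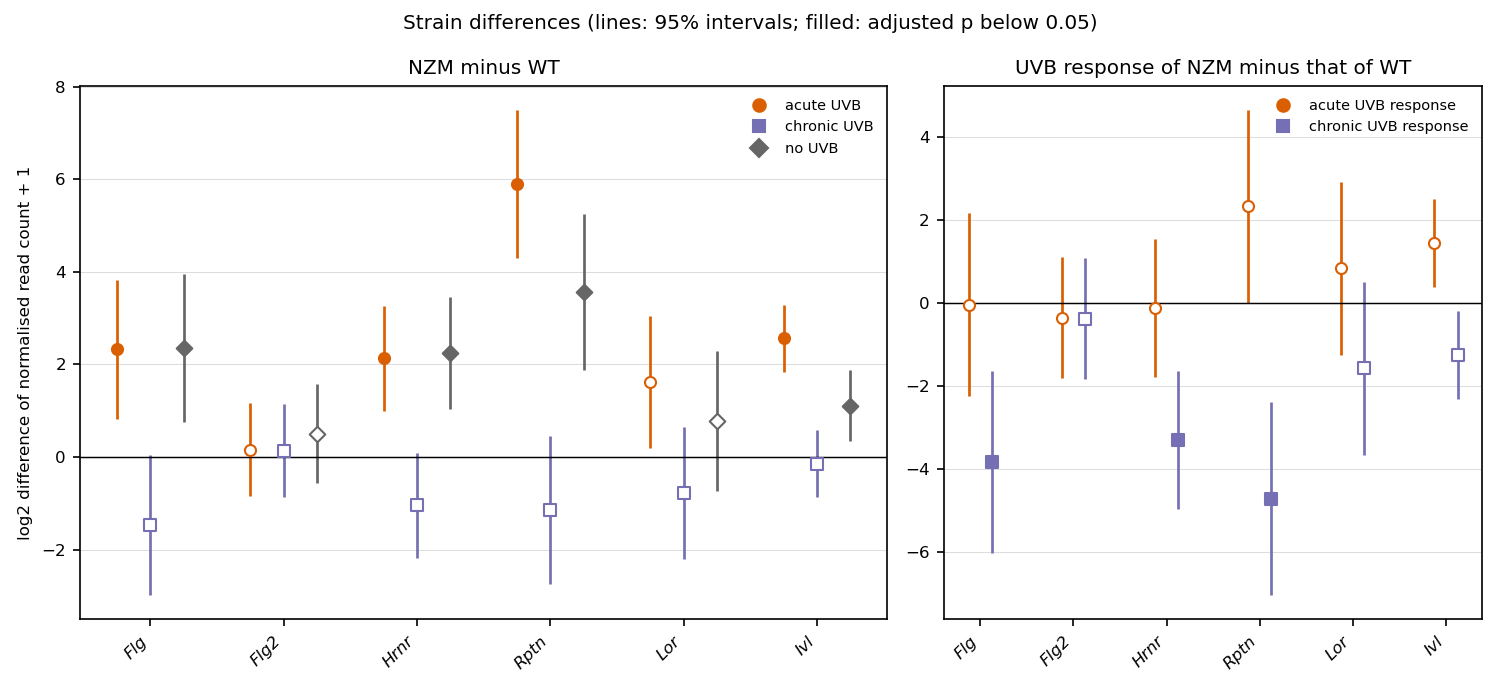
Differences between NZM and WT in log2(normalised read count + 1) for 6 genes of the cornified layer under each regimen (left), and the UVB response of NZM minus that of WT (right). Lines are 95% intervals and filled markers have a limma adjusted p below 0.05. Flg, Hrnr, Rptn and Ivl are filled above 0 after acute UVB and without UVB, and the chronic responses of Flg, Hrnr and Rptn are filled below 0.

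A test of the difference in response asked whether NZM and WT reacted unequally. The log2 response to chronic UVB was smaller in NZM than in WT, with a difference of -3.82 ± 1.09 for Flg (limma adjusted p = 0.0263), -3.29 ± 0.82 for Hrnr (0.0131) and -4.71 ± 1.15 for Rptn (0.0118). These 3 of the 9 genes were called in a comparison that called 7.58% of all genes in either direction. For Ivl the difference of responses was -1.25 ± 0.52 (adjusted p = 0.132), for Lor -1.57 ± 1.03 (0.359) and for Flg2 -0.37 ± 0.72 (0.796). Unexposed NZM skin was higher than unexposed WT skin for the 3 genes, and the chronic groups overlapped. After chronic UVB the NZM minus WT difference was -1.47 ± 0.75 for Flg and -1.04 ± 0.56 for Hrnr, and neither passed. The parts of the unexposed and the chronic levels in the unequal responses were not tested. Without the 9 libraries high in hair genes the difference in response was -2.97 for Flg (adjusted p = 0.0549), -2.29 for Hrnr (0.0267) and -3.91 for Rptn (0.0189). The Flg call was also lost without chronic library 55 or 56 or unexposed library 34 of NZM, and without chronic library 27 or unexposed library 44 or 45 of WT, with adjusted p up to 0.0708. In the same comparison 7 of 9 adipocyte genes and 6 of 7 fibroblast genes had a higher response in NZM and 0 a lower one. Their part in the result was not tested. Summed adipocyte genes ran from 20634 to 48397 counts after chronic UVB in NZM and from 29330 to 47939 after chronic UVB in WT. The response to acute UVB was not called unequal for any of the 9, where limma called 0.115% of all genes. At an unadjusted p below 0.05, 2 of the 9 differed in that comparison (Rptn, 2.33 ± 1.15, and Ivl, 1.46 ± 0.52), edgeR called 0 and DESeq2 2.

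Between iNZM and NZM none of the 9 genes passed the test under any regimen. Limma called 0% of all genes higher and 0.0313% lower in iNZM without UVB, 0.00522% higher and 0.219% lower after acute UVB, and 0.0156% higher and 0.412% lower after chronic UVB, so few genes of any kind were called. At an unadjusted p below 0.05, 3 of the 9 were lower in iNZM after acute UVB (Flg2, Hrnr and Lor), and 0 in the other comparisons. EdgeR and DESeq2 called 0 under each regimen. The intervals were wide. After acute UVB the log2 difference was -1.89 for Lor (95% interval -3.32 to -0.46), -1.20 for Hrnr (-2.34 to -0.06) and -1.03 for Flg2 (-2.04 to -0.03). For these genes the lowest acute iNZM libraries were 6 and 49, both among the 9 high in hair genes. They had 934 and 4786 counts of Lor, 215 and 288 of Hrnr, and 424 and 404 of Flg2. In the fit without those 9 libraries 0 of the 9 genes were called after acute UVB. After chronic UVB the log2 difference was 0.67 for Flg (-0.84 to 2.18) and -0.78 for Rptn (-2.38 to 0.81). Without UVB it was 1.41 for Rptn (-0.28 to 3.09) and did not pass. The 4 unexposed iNZM libraries all lay above the 5 NZM libraries for Rptn, and the share of all genes that separate so was not counted. The difference in response between these strains was called for 0 of the 9 after either regimen, where limma called 0.00522% of all genes for acute and 0% for chronic UVB. At an unadjusted p below 0.05 it was 1 for acute UVB (Rptn, -2.36 ± 1.15) and 0 for chronic UVB, with 0 by edgeR and by DESeq2 in both. Libraries 6 and 49, high in hair genes, were also the lowest acute iNZM libraries for Rptn, at 139 and 571 counts. The intervals for chronic UVB ran from -1.41 to 2.99 for Flg and from -4.51 to 0.13 for Rptn. These intervals leave room for sizeable differences in either direction for Flg.

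Levels of different genes can be set side by side only per length. Per kilobase of exon, Lor had rank 1 in all 9 groups, with a median from 4513 normalised read counts per kilobase in WT after acute UVB to 135922 in WT after chronic UVB. Flg had rank 2 in WT after chronic UVB, at 7823, and rank 5 in WT without UVB, at 62.2. Ivl had rank 2 in all 3 unexposed groups, at 2076 in iNZM, 1722 in NZM and 740 in WT. Tchh had rank 2 in NZM after chronic UVB, at 7348, and rank 7 in NZM without UVB, at 12.7. The chronic NZM libraries ran from 16.1 to 16174 for Tchh, and libraries 17, 55 and 56 of that group were high in hair genes. Together the 9 genes took a median of 1.11% of all reads in iNZM, 1.2% in NZM and 1.55% in WT after chronic UVB. The medians after acute UVB were 0.207% in iNZM, 0.226% in NZM and 0.0534% in WT, and those without UVB were 0.826% in iNZM, 0.977% in NZM and 0.559% in WT. Levels of 3 genes are less certain, because a read as long as 151 bases would match more than 1 place within the same transcript for 66.1% of start positions in Hrnr, 62.3% in Flg and 46.0% in Flg2, against at most 0.176% in the other 6. No such stretch was shared with another gene of the region. How reads with several matches were counted is not given in the sources used here. GENCODE tags Flg and Flg2 as carrying an error in the reference genome. Flg overlaps the pseudogene Rplp0-ps1 on the same strand, so strand cannot separate their reads where they overlap. Hrnr, Rptn and Tchh overlap the antisense gene Gm37245, and reads of those pairs cannot be told apart if counting ignored strand.

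Other genes that act on these proteins were read from lists of named genes. Of 16 genes of the spinous and granular layers, 11 fell in iNZM, 8 in NZM and 14 in WT after acute UVB, and 0 rose, with median log2 differences of -1.92, -1.32 and -2.38. The keratin gene Krt78 fell, with log2 differences of -5.25 ± 0.77 in iNZM, -3.10 ± 0.72 in NZM and -2.78 ± 0.77 in WT. Dsg1a, a desmosomal cadherin gene, also fell, with -2.19 ± 0.30 in iNZM, -1.84 ± 0.28 in NZM and -2.99 ± 0.30 in WT. After chronic UVB 0 of the 16 rose and 3 fell in iNZM, 0 rose and 2 fell in NZM, and 3 rose and 1 fell in WT. The summed level of the list ran from 127093 to 811052 counts in iNZM, 171762 to 1533780 in NZM and 475140 to 1902140 in WT after chronic UVB, against 462347 to 1017120 in iNZM, 564005 to 1072270 in NZM and 427807 to 790261 in WT without UVB. In iNZM and NZM skin after chronic UVB Flg rose while 0 of these 16 genes did. Basal keratinocyte genes, 11 in number, were called lower in 5, 9 and 1 after chronic UVB in iNZM, NZM and WT, and higher in 0, 0 and 2.

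Of 16 genes for enzymes and inhibitors that cut, modify or break down filaggrin, 7 fell in iNZM, 4 in NZM and 6 in WT after acute UVB, and 0, 1 and 0 rose, with medians of -0.71, -0.59 and -0.76. Hal, whose enzyme turns the histidine freed from filaggrin into urocanic acid, a natural absorber of UVB, fell after acute UVB, with log2 differences of -3.81 ± 0.58 in iNZM (limma adjusted p = 1.03e-05), -2.43 ± 0.55 in NZM (0.00136) and -2.17 ± 0.58 in WT (0.0056). After chronic UVB 2 rose and 1 fell in iNZM, 4 rose and 2 fell in NZM, and 8 rose and 1 fell in WT, with medians of -0.31, 0.04 and 0.81. Casp14, the protease gene needed for filaggrin breakdown, rose by 1.66 ± 0.46 in NZM (limma adjusted p = 0.0112) and by 4.12 ± 0.48 in WT (5.21e-08), while the 0.86 ± 0.48 in iNZM did not pass (0.173). Its counts after chronic UVB ran from 2940 to 20416 in NZM and from 7446 to 28300 in WT, against 1518 to 3950 in NZM and 912 to 1465 in WT without UVB, so the ranges overlapped in NZM and not in WT. Blmh, a peptidase gene of the same pathway, rose by 1.17 ± 0.27 in NZM and 1.54 ± 0.29 in WT. Of the 5 transglutaminase genes 1 rose and 1 fell in iNZM, 2 rose and 0 fell in NZM, and 3 rose and 1 fell in WT after chronic UVB. Tgm3, which crosslinks envelope and hair proteins, rose by 2.52 ± 0.70 in NZM and 3.34 ± 0.74 in WT.

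Of 24 regulators of late keratinocyte differentiation, 4 rose and 7 fell in iNZM, 3 rose and 6 fell in NZM, and 2 rose and 10 fell in WT after acute UVB. Gata3, a transcription factor gene of differentiating keratinocytes, fell, with log2 differences of -1.57 ± 0.32 in iNZM, -2.11 ± 0.31 in NZM and -2.43 ± 0.32 in WT. After chronic UVB 0 rose and 3 fell in iNZM, 3 rose and 4 fell in NZM, and 3 rose and 2 fell in WT. Ahr, the receptor gene through which light products and pollutants act on the barrier, fell after acute UVB, with -1.73 ± 0.30 in iNZM, -1.18 ± 0.29 in NZM and -1.25 ± 0.30 in WT. Of 14 cytokine genes known to act on the barrier, 3 rose and 2 fell in iNZM, 5 rose and 0 fell in NZM, and 5 rose and 1 fell in WT after acute UVB. After chronic UVB the counts were 0 and 2 in iNZM, 0 and 0 in NZM, and 1 and 1 in WT. Il24 rose by 6.58 ± 0.94 in iNZM, 7.51 ± 0.89 in NZM and 5.31 ± 0.94 in WT after acute UVB. Il22 and Il31 were not analysed here. Genes of activated keratinocytes, 9 in all, rose in 6, 7 and 7 after acute UVB in iNZM, NZM and WT, and in 0, 3 and 8 after chronic UVB, with 1 lower in iNZM after chronic UVB. Krt16, their typical keratin gene, rose after chronic UVB by 6.67 ± 0.76 in WT and by 2.93 ± 0.71 in NZM, and differed by 0.20 ± 0.76 in iNZM (adjusted p = 0.864).

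The region of chromosome 3 between Lor and Tchhl1 holds 42 other genes of the table, most of them small proline-rich and late cornified envelope genes, and 41 of them were tested. After acute UVB 15 rose and 21 fell in iNZM, 16 rose and 18 fell in NZM, and 17 rose and 18 fell in WT. After chronic UVB 6 rose and 5 fell in iNZM, 10 rose and 1 fell in NZM, and 27 rose and 1 fell in WT. Lce3d, a late envelope gene known to respond to injury, rose after acute UVB by 5.37 ± 0.67 in iNZM, 6.61 ± 0.63 in NZM and 7.44 ± 0.67 in WT. Sprr1b, a small proline-rich envelope gene, rose after acute and after chronic UVB in all 3 strains, by 6.77 ± 0.94 and 9.25 ± 0.94 in WT. Prr9 rose after chronic UVB in iNZM (7.48 ± 1.96) and NZM (7.15 ± 1.85), and in WT its difference of 2.26 ± 1.96 did not pass (limma adjusted p = 0.385). The members resembled different genes across the 43 libraries, where r describes libraries that share groups. The closest were Yod1 for Flg (r = 0.95), Serpinb7 for Flg2 (0.97), Calm4 for Hrnr (0.97), Il1f6 for Rptn (0.94), Kprp for Lor (0.98), Asprv1 for Ivl (0.96), Kcnk16 for Crnn (0.93) and Gja1 for Tchhl1 (0.95), and for Tchh the 3 closest had clone names only. Among the members themselves Crnn and Tchh had r = 0.93 and Flg2 and Lor had r = 0.91, against r = 0.44 for Flg and Flg2.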

How the data were processed

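The deposited table holds 1 signal value per gene and library, normalised read counts that the authors made by dividing read counts by 1 size factor per library. STAR, HTSeq, DESeq2 and build mm10 are named in the submitters' processing notes, and their versions are not given in the sources used here. Multiplying by the recovered factors (0.674 to 1.75) turned 100% of the values into whole reads, to a tolerance of 0.01. Genes reaching 10 in 4 or more libraries were tested with limma 3.58.1 (R 4.3.3, trended variance) on log2(value + 1), a scale that understates changes of low genes, with 1 mean per group over all 43 libraries, two-sided and adjusted by Benjamini-Hochberg at 0.05 within each comparison. Count tests on those whole reads, by edgeR 4.0.16 and by DESeq2 1.42.0, were alternatives, and edgeR called 0 to 7098 genes per comparison. Replicates differed by more than sampling noise, with a lowest chi-square per gene of 16.9. Other alternatives were the pseudocount, the filter, fits on the compared groups alone, quality weights, a term for library number, a stricter threshold of 0.01, the hair shaft mean as a covariate, and leaving out libraries.

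The members and the gene lists were chosen with earlier results of these data known. From each list, up to 4 genes called in a comparison of UVB with no UVB were eligible to be named, by smallest adjusted p, with up to 4 neighbours by size of change and the 3 genes most correlated with each member. Sequences came from RefSeq (GRCm38.p6), positions from GENCODE vM21, and figures from Python 3.11.15 with matplotlib 3.10.9. The scripts were tested on simulated data.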

Additional observations from a re-analysis of the deposited data

Results flagged for a closer look

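In 12 of 81 combinations of gene and group a single library stood apart from the rest of its group by Dixon's test. For normally distributed values chance alone does so in about 1 in 20 groups. The test was run on counts without logs, so that rate need not hold here. Crnn, Tchh and Tchhl1 were flagged together in the same libraries, so the flags are not independent. NZM library 5 after acute UVB was the highest of its group for Crnn (3143.7 normalised read counts), Tchh (82206) and Tchhl1 (1723.7). Likewise iNZM library 25 after chronic UVB was the highest for Crnn (15080), Tchh (260990) and Tchhl1 (16970). Both were among the 9 libraries high in hair shaft genes. WT library 44 without UVB was the highest for Crnn (242.62), Tchh (4688.4) and Tchhl1 (59.509), with a hair shaft mean below the midpoint. In iNZM without UVB, library 39 had 2.4749 for Tchhl1 and the other 3 had 0, a difference of a few reads. Rptn stood apart at 4146 in NZM library 3 after acute UVB, and Ivl at 1754.6 in WT library 43 without UVB.

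The response to chronic UVB differed between NZM and WT by a test of the difference itself for 3 genes, with log2 differences of -3.823 for Flg, -3.285 for Hrnr and -4.708 for Rptn.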

How the results depend on the processing

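Calls over the 9 genes numbered 10 of 27 for acute UVB, 14 of 27 for chronic UVB, 15 of 27 for chronic against acute UVB, 8 of 54 between strains and 3 of 36 for differences in response. DESeq2 gave 17 for acute UVB, 12 between strains and 8 for differences in response. A threshold of 0.01 gave 7 for chronic UVB, 5 between strains and 0 for differences in response. Fits on the compared groups alone gave 9 for chronic against acute UVB, and quality weights gave 24 there, 17 for chronic UVB and 5 for differences in response. Leaving out 1 library in turn gave 9 to 11 calls for acute UVB, 10 to 15 for chronic UVB, 14 to 17 for chronic against acute UVB, 6 to 9 between strains and 2 to 4 for differences in response. With the hair shaft covariate Crnn after chronic UVB in iNZM turned to -0.01213. Of 50 called results, 43 kept their call with that covariate, 42 without the 9 libraries high in hair shaft genes, 39 in fits on the compared groups alone and 35 at 0.01. The cause of these changes was not tested. For Crnn, Tchh and Tchhl1 after chronic UVB, calls were lost without single libraries, 22, 24 or 25 of iNZM or 17, 55 or 56 of NZM among them. Near 0 counts, as for Tchhl1 in unexposed iNZM skin with 3 reads in all, depth limits any fold. No paired analysis was possible because no replicate number is shared between groups.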
